A study of Mus musculus with 12 samples.

Results

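The T cell receptor complex and the CD4 and CD8 coreceptors were followed through 10 genes: Cd3d, Cd3e, Cd3g, Cd247, Trac, Trbc2, Trdc, Cd4, Cd8a and Cd8b1. They were taken by symbol from a table of 55413 genes, and each was found once. The bulk RNA-seq series asks how regulatory T cells (Treg) that arise inside a tumor from other CD4 T cells compare with Treg that entered it as such. By this design tumor pTreg (3 libraries) are the Treg formed from transferred Foxp3- conventional CD4 T cells of CD45.2 Foxp3YFP-cre donors, and tumor tTreg (5 libraries) are those descended from transferred tTreg of CD45.1 Foxp3YFP-cre donors. Both were sorted from the CD4+ T cells of Hepa1-6 tumors, grown from a mouse hepatoma line, on day 18 after inoculation. The hosts were TCRbd-/- mice, which make no T cells of their own. They had received tTreg, conventional CD4 and CD8 T cells at 1 to 10 to 8, and the tumor cells 3 days later. LN Treg (4 libraries) are total Treg from lymph nodes of tumor-free mice, with no treatment. Their genotype label reads the same as that of the tumor libraries, Foxp3YFP-cre and TCRbd-/-. The sources used here give no ages. CD8 T cells were thus transferred as well, and the tumor Treg were taken from isolated CD4+ cells.

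An alpha-beta T cell recognises antigen through a pair of variable chains whose constant regions come from Trac and from Trbc1 or Trbc2. These chains have almost no tail inside the cell, so the signal passes through the CD3 gamma, delta and epsilon chains and the zeta chain dimer, which carry the tyrosine motifs that Lck phosphorylates. CD4 binds MHC class II and CD8 binds MHC class I, and both bring Lck to the receptor. Treg are usually CD4 positive and CD8 negative.

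The libraries held 17964262 to 18180959 counts in tumor pTreg, 18107272 to 18510923 in tumor tTreg and 14573864 to 17323894 in LN Treg. The labelled cell type was checked on Foxp3, Ikzf2, Il2ra and Ctla4, whose summed level was 251 to 260 CPM (counts per 1e6 counts of the library) in tumor pTreg, 73.3 to 76.5 CPM in tumor tTreg and 2393 to 2490 CPM in LN Treg. Relative to the T cell transcripts described below, all 4 were lower in tumor pTreg than tumor tTreg (median log2 fold change -1.90). So were 97.3% of all genes, whose median of -3.43 was lower still. Against LN Treg, 3 were lower and 1, Ctla4, was higher in tumor pTreg (median -1.71, and -2.30 for Foxp3). There 90.5% of all genes were higher and 4.73% lower, with a median of 2.15. Of 9 macrophage markers all were detected, at summed levels of 5652 to 5700 CPM in tumor pTreg, 5691 to 6019 CPM in tumor tTreg and 32.6 to 40.9 CPM in LN Treg. The 7 markers of Hepa1-6 cells or hepatocytes, which include Alb, Afp and Krt8, summed to 5339 to 5712 CPM in tumor pTreg, 7882 to 8225 CPM in tumor tTreg and 7.38 to 9.53 CPM in LN Treg. Transcripts of other cells thus moved with the groups, and their part in the results below was not tested. In such bulk samples fewer T cells and less RNA per T cell cannot be told apart. Nothing in the labels ties each library to its own animal, so p-values here reflect the scatter among libraries, part of which may be technical.

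Each gene is given on 2 scales for that reason. The library scale sets a gene against all counts of its library. The T cell scale sets it against the summed counts of 14 other T cell genes, none of them a member, among them Lck, Zap70, Lat, Cd2, Cd5, Cd6, Cd28 and Bcl11b. These summed to 18831 to 19251 counts in a tumor pTreg library, 1760 to 1832 in a tumor tTreg library and 67380 to 81175 in an LN Treg library. The scale takes that sum as exact, and its tests are therefore too confident where it is small, in tumor tTreg. A gene was called when its adjusted p in the edgeR quasi-likelihood test was below 0.05, over 15705 genes.

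The CD3 genes and the CD8 genes lie in small clusters, and the start regions of 4 of these genes, whose levels the results compare, are shown here to set them side by side. In the GRCm38 build Cd3g (chr9:44969572-44980431, minus strand) and Cd3d (chr9:44981786-44987339, plus strand) are divergent genes with 1354 bases between them, and Cd3e (chr9:44998740-45009627, minus strand) follows 11400 bases further on. Cd8b1 (chr6:71322788-71337494) and Cd8a (chr6:71373427-71379173) lie in the same direction on the plus strand, 35932 bases apart. RefSeq start regions (GRCm38.p6, 300 bases each) were matched by symbol for 5 of the 10 genes, Cd3d, Cd3e, Cd3g, Cd247 and Cd8a. The letters CAGNTG (the E-box of basic helix-loop-helix factors) and TGNGGT (the core bound by RUNX factors) were searched on both strands. Capitals mark the matches, and the sequences run 5′ to 3′ on the strand of the gene.
Cd3g promoter, chr9:44980382-44980681, minus strand: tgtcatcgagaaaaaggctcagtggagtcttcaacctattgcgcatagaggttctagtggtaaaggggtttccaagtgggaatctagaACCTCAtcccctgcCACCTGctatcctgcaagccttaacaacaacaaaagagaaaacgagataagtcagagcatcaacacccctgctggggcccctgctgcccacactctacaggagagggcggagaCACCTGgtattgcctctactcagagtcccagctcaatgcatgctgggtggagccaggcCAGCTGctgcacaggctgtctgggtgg
Cd3d promoter, chr9:44981536-44981835, plus strand: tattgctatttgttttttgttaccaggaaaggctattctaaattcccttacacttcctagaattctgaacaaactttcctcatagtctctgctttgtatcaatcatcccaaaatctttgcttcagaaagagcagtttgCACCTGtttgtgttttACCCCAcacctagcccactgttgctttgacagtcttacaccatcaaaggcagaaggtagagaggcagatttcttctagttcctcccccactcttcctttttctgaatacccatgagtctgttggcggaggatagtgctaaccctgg
Cd3e promoter, chr9:45009562-45009861, minus strand: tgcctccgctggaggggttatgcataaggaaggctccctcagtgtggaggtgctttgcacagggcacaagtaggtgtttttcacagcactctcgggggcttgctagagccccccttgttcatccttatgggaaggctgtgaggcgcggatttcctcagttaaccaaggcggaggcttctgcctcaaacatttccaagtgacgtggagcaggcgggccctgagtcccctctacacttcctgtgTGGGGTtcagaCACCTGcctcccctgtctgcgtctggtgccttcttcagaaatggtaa
Cd8a promoter, chr6:71373177-71373476, plus strand: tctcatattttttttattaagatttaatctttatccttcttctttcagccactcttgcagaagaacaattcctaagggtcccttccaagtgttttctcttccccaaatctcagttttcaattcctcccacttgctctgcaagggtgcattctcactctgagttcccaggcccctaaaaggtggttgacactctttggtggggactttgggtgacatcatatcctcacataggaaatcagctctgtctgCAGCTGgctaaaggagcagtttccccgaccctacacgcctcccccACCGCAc
All 5 start regions held both letter groups, without overlap between them, whereas 51.4% and 45.8% of 32851 start regions of the same length held the first and the second. The Cd3g region held 3 matches to CAGNTG and the Cd247 region 2 matches to TGNGGT. A match describes the letters only.

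**Figure D1:**
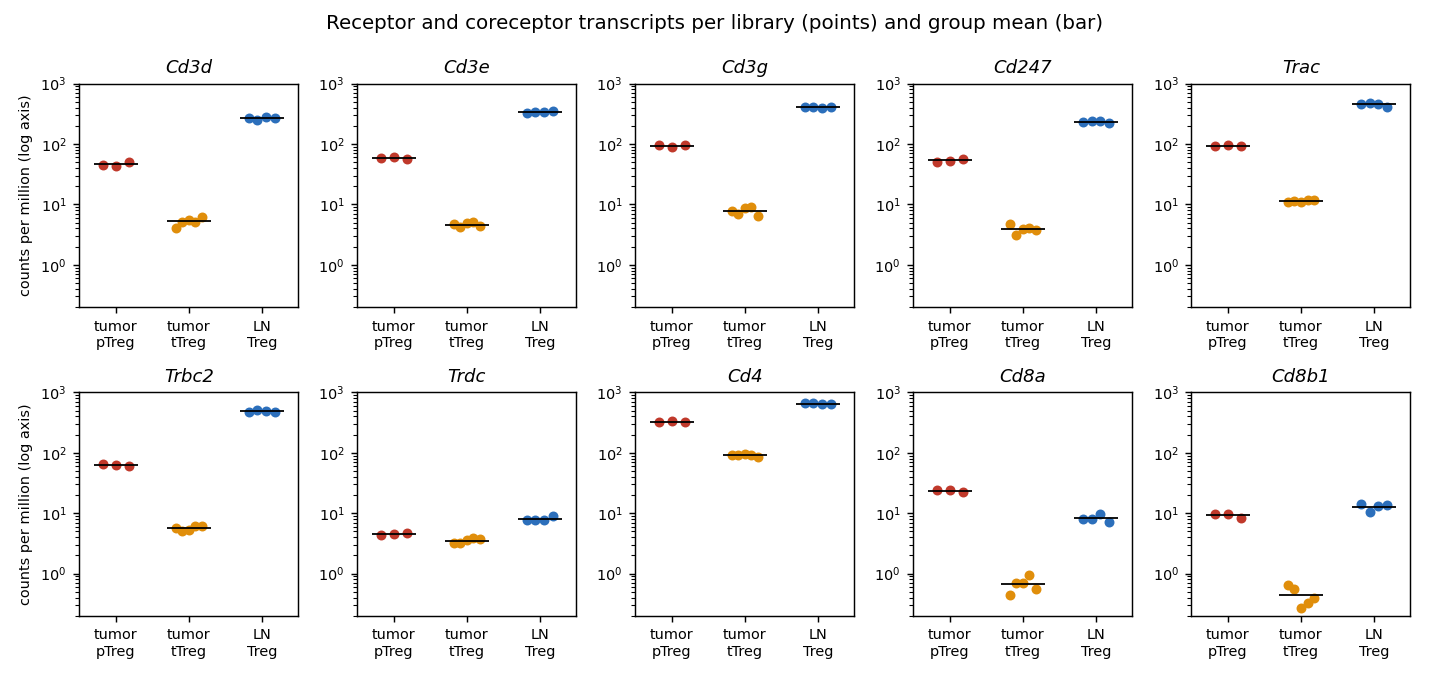
Level of each of the 10 genes in CPM (log axis, the same range in every panel) in tumor pTreg, tumor tTreg and LN Treg libraries, with each library as a point and the group mean as a bar. Cd8a stands apart with its highest level in tumor pTreg, 22.5 to 24.3 CPM, and Trdc with group means of 4.52 CPM in tumor pTreg, 3.52 CPM in tumor tTreg and 7.98 CPM in LN Treg.

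On the library scale the receptor genes were lowest in tumor tTreg throughout. All 10 genes were higher in tumor pTreg than in tumor tTreg, where 52.1% of all genes were called, 26.8% higher and 25.3% lower. Their median log2 fold change was 3.55, against -0.01 over all genes tested. Against LN Treg, tumor pTreg had 9 genes lower and 1 higher, Cd8a, where 87.5% of all genes were called, 39.8% lower and 47.6% higher. The median log2 fold change was -2.01, against 0.12 over all genes tested. All 10 were lower in tumor tTreg than in LN Treg, where 90.3% of all genes were called, 48.1% higher and 42.3% lower, with a median of -5.40 against 0.10. The 3 comparisons share their libraries in pairs, so their values are not independent. No gene had overlapping CPM ranges in any comparison, which held for 48.5% of all genes between tumor pTreg and tumor tTreg, 85.9% between tumor pTreg and LN Treg and 85.2% between tumor tTreg and LN Treg.

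**Figure D2:**
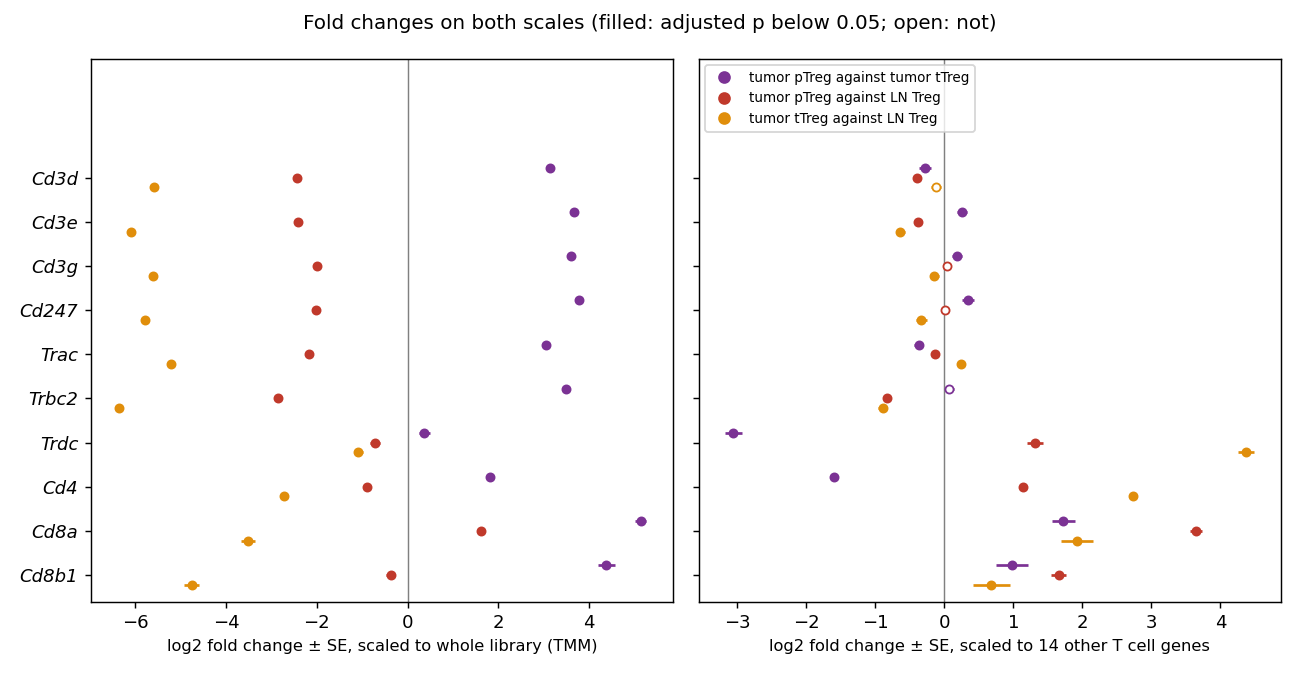
Log2 fold change with its standard error for each of the 10 genes in the 3 comparisons, scaled to the whole library (left) and to 14 other T cell genes (right). On the left every gene of tumor tTreg lies below LN Treg; on the right the CD3 genes, Trac and Trbc2 lie between -0.90 and 0.34, while Cd4, Cd8a, Cd8b1 and Trdc lie apart.

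Cd3e encodes the epsilon chain, which pairs with both the gamma and the delta chain. It read 59.6, 60.5 and 57.3 CPM in tumor pTreg, 4.82, 4.15, 4.86, 5.04 and 4.36 CPM in tumor tTreg, and 328, 344, 344 and 347 CPM in LN Treg. The groups were far apart and the libraries of each were close together. Its level was 12.8-fold higher in tumor pTreg than in tumor tTreg (edgeR, log2 fold change 3.68 ± 0.06 SE, adjusted p = 2.83e-28). It was 5.36-fold lower in tumor pTreg than in LN Treg (edgeR, -2.42 ± 0.03, adjusted p = 2.06e-30), and 68.4-fold lower in tumor tTreg than in LN Treg (edgeR, -6.10 ± 0.04, adjusted p = 1.02e-37). Annotated Gm48719 lies on the opposite strand of Cd3e and Gm48720 on its own strand. The sources used here do not say whether counting used strand, so their reads could not be told apart from those of Cd3e.

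Cd3g and Cd3d, the gamma and delta chains of the complex, followed the same order of groups. Cd3g averaged 94.5 ± 3.21 CPM in tumor pTreg (SD, n = 3), 7.79 ± 1.16 in tumor tTreg (n = 5) and 406 ± 9.72 in LN Treg (n = 4). Cd3d averaged 46.0 ± 3.30 CPM in tumor pTreg, 5.22 ± 0.755 in tumor tTreg and 267 ± 12.6 in LN Treg. Cd3g was 12.2-fold and Cd3d 8.86-fold higher in tumor pTreg than in tumor tTreg. The drop against LN Treg was 3.99-fold for Cd3g and 5.40-fold for Cd3d in tumor pTreg, and 48.6-fold and 47.8-fold in tumor tTreg. All 6 of these differences passed the edgeR test, with adjusted p-values of 1.84e-23 or less.

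Cd247 encodes the zeta chain, which carries most of the tyrosine motifs of the complex. It lies apart from the other CD3 genes (chr1:165788681-165877277, plus strand). Its level was 50.3, 52.9 and 57.3 CPM in tumor pTreg, 4.82, 3.06, 3.89, 4.11 and 3.81 CPM in tumor tTreg, and 235, 237, 238 and 225 CPM in LN Treg. The groups did not overlap, and the tumor tTreg values rest on 56 to 88 counts each. Cd247 was 13.6-fold higher in tumor pTreg than in tumor tTreg (edgeR, log2 fold change 3.77 ± 0.07 SE, adjusted p = 2.67e-26). It was 4.06-fold lower in tumor pTreg and 55.4-fold lower in tumor tTreg than in LN Treg. Pou2f1, which encodes the broadly expressed factor Oct-1, runs the other way over 12124 bases of the Cd247 gene. Pou2f1 had 599 to 706 counts in tumor pTreg, 487 to 601 in tumor tTreg and 1552 to 1776 in LN Treg, and its part in the Cd247 values was not tested.

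Set against the 14 T cell genes, no CD3 gene differed between groups by more than 1.56-fold. Of the 10 genes, 5 were higher, 4 lower and 1 not called in tumor pTreg against tumor tTreg, where 97.7% of all genes were called, 0.484% higher and 97.3% lower. Against LN Treg, tumor pTreg had 4 higher, 4 lower and 2 not called, where 95.2% of all genes were called, 90.5% higher and 4.73% lower. In tumor tTreg against LN Treg 5 were higher, 4 lower and 1 not called, where 97.8% were called, 96.7% higher and 1.04% lower. The median log2 fold change of the 10 was 0.12 between the tumor groups, against -3.43 over all genes. It was 0.02 in tumor pTreg and 0.06 in tumor tTreg against LN Treg, where all genes had medians of 2.15 and 5.56. Libraries did not overlap for 6 of the 10 between the tumor groups (95.8% of all genes), for 7 in tumor pTreg against LN Treg (94.7%) and for 6 in tumor tTreg against LN Treg (96.5%). Changing the scale thus moved the median gene by several log2 units, and the values on it are relative to T cell transcripts only.

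**Figure D3:**
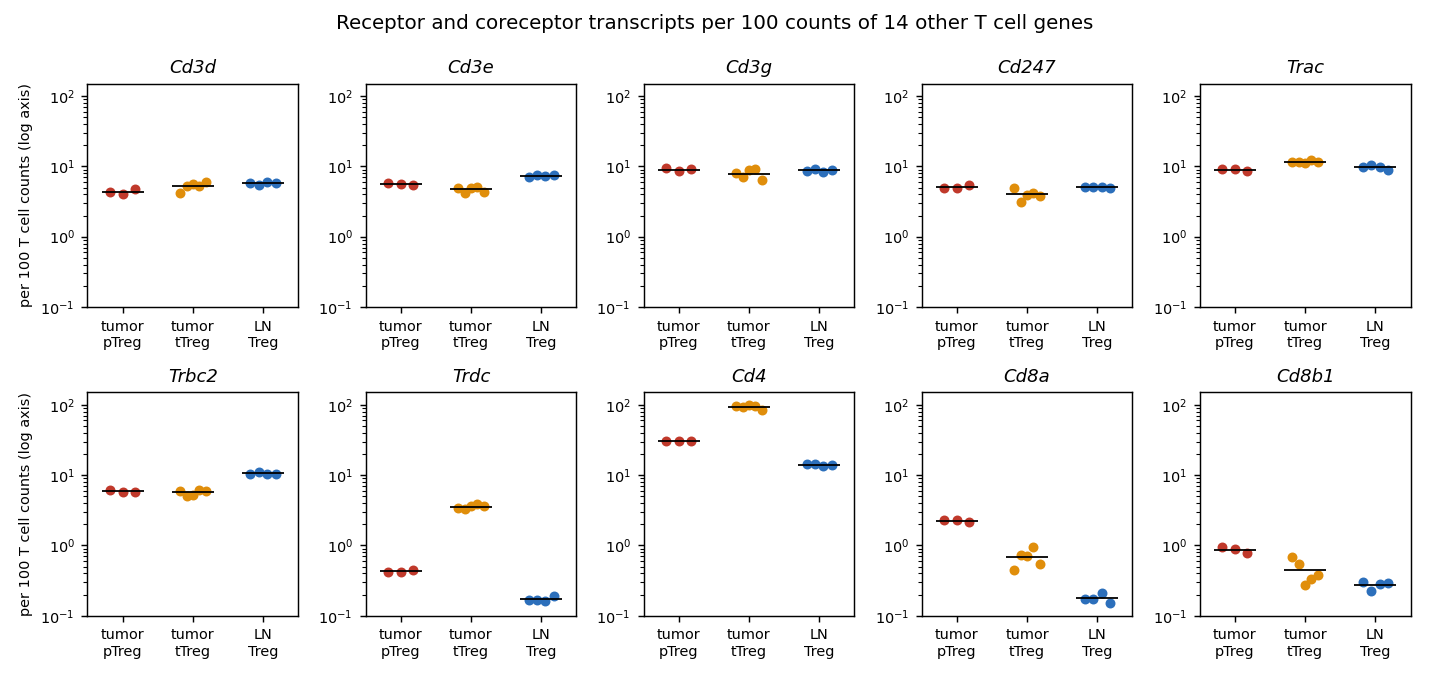
Counts of each of the 10 genes per 100 counts of 14 other T cell genes (log axis, the same range in every panel) in tumor pTreg, tumor tTreg and LN Treg libraries, with points for libraries and bars for group means. The CD3 genes, Trac and Trbc2 lie within a narrow band, whereas Cd4 reaches 93.7 and Trdc 3.57 on average in tumor tTreg, and Cd8a 2.23 in tumor pTreg.

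Among the CD3 genes, Cd3e had 5.60 counts per 100 T cell counts in tumor pTreg, 4.71 in tumor tTreg and 7.34 in LN Treg on average. It was lower than in LN Treg in tumor pTreg (edgeR, log2 fold change -0.39 ± 0.04 SE, adjusted p = 1.85e-10) and in tumor tTreg (edgeR, -0.64 ± 0.07, adjusted p = 8.62e-11). The call in tumor pTreg was lost when libraries were scaled to Lck alone (edgeR, -0.16, adjusted p = 0.0774). Cd3e was also called higher in tumor pTreg than in tumor tTreg (edgeR, 0.25 ± 0.07, adjusted p = 0.00176), and this call was lost when libraries were scaled to Lck (edgeR, adjusted p = 0.203). Cd247 had 5.06, 3.99 and 5.04 counts per 100 T cell counts in tumor pTreg, tumor tTreg and LN Treg. It was higher in tumor pTreg than in tumor tTreg (edgeR, 0.34 ± 0.09, adjusted p = 0.000443), although the libraries overlapped. In tumor pTreg it was not told apart from LN Treg (edgeR, 0.01 ± 0.05, adjusted p = 0.865), but it was called higher there when scaled to Lck (0.24, adjusted p = 0.00988). The drop of Cd247 in tumor tTreg against LN Treg (edgeR, -0.34 ± 0.08, adjusted p = 0.000306) was lost under the Lck scale (adjusted p = 0.998).

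Cd3g and Cd3d gave small differences on this scale, several of which depended on it. Cd3g averaged 8.95, 7.90 and 8.73 per 100 T cell counts in tumor pTreg, tumor tTreg and LN Treg, and Cd3d averaged 4.36, 5.28 and 5.75. Cd3d in tumor pTreg was lower than in tumor tTreg (edgeR, log2 fold change -0.28 ± 0.09 SE, adjusted p = 0.00275), although the libraries overlapped, and lower than in LN Treg (edgeR, -0.40 ± 0.05, adjusted p = 8.69e-09), the second call being lost under the Lck scale (adjusted p = 0.0669). Cd3g was called higher in tumor pTreg than in tumor tTreg (edgeR, 0.18 ± 0.07, adjusted p = 0.0190), and the call was lost without tumor pTreg replicate 1 or tumor tTreg replicate 2 or 5 (edgeR, adjusted p of 0.0659 to 0.132) and under the Lck scale (edgeR, adjusted p = 0.490). Cd3g in tumor tTreg against LN Treg (edgeR, -0.14 ± 0.07, adjusted p = 0.0435) and Cd3d there (edgeR, -0.12 ± 0.08, adjusted p = 0.124) turned positive under the Lck scale, at 0.19 (adjusted p = 0.0461) and 0.21 (adjusted p = 0.0446). The Cd3g call was also lost without any of 5 libraries, tumor tTreg replicates 1, 2 and 5 and LN Treg replicates 2 and 4, and the Cd3d difference became a call without tumor tTreg replicate 5 (edgeR, -0.18, adjusted p = 0.0434). In tumor pTreg against LN Treg, Cd3g did not pass the test (edgeR, 0.04 ± 0.05, adjusted p = 0.454) but did so under the Lck scale (0.26, adjusted p = 0.00393).

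Trac, the constant gene of the alpha chain (chr14:54220521-54224206, plus strand), was the most abundant member per length in tumor pTreg. Its level was 93.6, 97.5 and 91.5 CPM in tumor pTreg, 10.9, 11.4, 11.02, 12.05 and 11.65 CPM in tumor tTreg, and 459, 477, 465 and 414 CPM in LN Treg. The level in tumor tTreg varied little, at 200 to 220 counts a library. Trac was 8.29-fold higher in tumor pTreg than in tumor tTreg (edgeR, adjusted p = 5.31e-27), and 4.48-fold and 37.1-fold lower in tumor pTreg and tumor tTreg than in LN Treg. Relative to T cell counts it averaged 8.92, 11.6 and 9.77 per 100 T cell counts in tumor pTreg, tumor tTreg and LN Treg. Tumor pTreg lay below tumor tTreg (edgeR, log2 fold change -0.37 ± 0.06 SE, adjusted p = 7.44e-07) and tumor tTreg above LN Treg (edgeR, 0.24 ± 0.06, adjusted p = 0.000131). The difference between tumor pTreg and LN Treg (edgeR, -0.13 ± 0.04, adjusted p = 0.00453) turned positive and lost its call under the Lck scale (0.10, adjusted p = 0.300) and a scale of summed Cd3d, Cd3e, Cd3g and Cd247 counts, the summed CD3 scale (0.03, adjusted p = 0.668).

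Trbc2 is 1 of a pair of constant genes of the beta chain and lies 6848 bases from its copy Trbc1 (Trbc2 at chr6:41546730-41548352, plus strand). Over 518 coding bases the copies had 23 mismatches and were 95.6% identical, with 1 mismatch in the 375 bases of exon 1. Mismatches outside the coding bases were not counted. The end of the coding sequence is shown because it holds most of the counted mismatches. It spans bases 394 to 518, counted from the first coding base of the constant gene. It runs 5′ to 3′ on the plus strand (GRCm38), with mismatches in capitals.
Trbc1: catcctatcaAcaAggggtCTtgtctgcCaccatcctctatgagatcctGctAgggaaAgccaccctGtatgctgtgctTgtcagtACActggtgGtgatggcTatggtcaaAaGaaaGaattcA
Trbc2: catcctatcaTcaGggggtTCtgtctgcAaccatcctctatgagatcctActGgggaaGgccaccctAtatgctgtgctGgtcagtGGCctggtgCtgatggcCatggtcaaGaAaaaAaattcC
Of all 100-base windows of the Trbc2 transcript 30.9% also occur in Trbc1, and 44.0% of the 50-base windows do. How the authors' counting divided such reads makes the level of each copy uncertain.

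Trbc2 read 64.5, 62.5 and 61.5 CPM in tumor pTreg, 5.75, 4.97, 5.24, 6.02 and 6.02 CPM in tumor tTreg, and 480.4, 512, 491 and 479 CPM in LN Treg. It was the member that was lowest in tumor tTreg relative to LN Treg, by 81.8-fold (edgeR, log2 fold change -6.35 ± 0.04 SE, adjusted p = 3.09e-38). Summing Trbc1 and Trbc2 before the test gave -5.67. Trbc2 was 11.3-fold higher in tumor pTreg than in tumor tTreg (edgeR, 3.49 ± 0.06, adjusted p = 6.69e-28), and the sum of both copies gave 2.89. Trbc1 averaged 37.9 ± 1.90 CPM in tumor pTreg, 8.06 ± 0.779 in tumor tTreg and 254 ± 9.27 in LN Treg. It was 4.73-fold higher in tumor pTreg than in tumor tTreg (edgeR, adjusted p = 4.53e-22). Against LN Treg, tumor pTreg was 7.26-fold lower for Trbc2 and 6.24-fold lower for Trbc1. On the T cell scale Trbc2 was lower than in LN Treg both in tumor pTreg (edgeR, -0.83 ± 0.04, adjusted p = 7.08e-19) and in tumor tTreg (edgeR, -0.90 ± 0.06, adjusted p = 3.76e-15). Between the tumor groups it was not told apart (edgeR, 0.07 ± 0.07, adjusted p = 0.343), and the sign was negative under the Lck scale (-0.04) and the summed CD3 scale (-0.06).

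The copies thus made up different shares of the beta chain constant transcripts. Trbc1 was 35.3, 37.4 and 35.9% of the summed FPKM (a fragment level scaled by gene length and depth) of both copies in tumor pTreg. It was 55.7, 57.3, 56.7, 57.0 and 56.6% in tumor tTreg, and 32.7, 32.3, 34.4 and 33.1% in LN Treg. The groups did not overlap, and Trbc1 exceeded Trbc2 in tumor tTreg alone of the 3 groups. These shares were not tested, and the division of shared reads bears on them.

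Trdc encodes the constant region of the delta chain of gamma-delta T cells, which alpha-beta T cells such as Treg do not carry (chr14:54142851-54148868, plus strand, 71652 bases before Trac). Its level was low everywhere, at 4.35, 4.45 and 4.76 CPM in tumor pTreg, 3.23, 3.22, 3.62, 3.83 and 3.70 CPM in tumor tTreg, and 7.71, 7.75, 7.62 and 8.83 CPM in LN Treg. These are 79 to 86, 59 to 70 and 113 to 152 counts a library, and the groups did not overlap. Trdc was 1.29-fold higher in tumor pTreg than in tumor tTreg (edgeR, log2 fold change 0.37 ± 0.12 SE, adjusted p = 0.0104). That call was lost with DESeq2 (0.32, adjusted p = 0.0676) and in edgeR without tumor pTreg replicate 3 (0.33, adjusted p = 0.0518). It was lower than in LN Treg by 1.64-fold in tumor pTreg (edgeR, adjusted p = 6.66e-07) and by 2.12-fold in tumor tTreg (edgeR, adjusted p = 3.10e-11).

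Set against T cell transcripts, Trdc was highest in tumor tTreg. It averaged 0.428 per 100 T cell counts in tumor pTreg, 3.57 in tumor tTreg and 0.172 in LN Treg. It was 8.33-fold lower in tumor pTreg than tumor tTreg (edgeR, log2 fold change -3.06 ± 0.12 SE, adjusted p = 4.88e-22), where the median of all genes was -3.43. In tumor tTreg it was 20.7-fold higher than in LN Treg (edgeR, 4.37 ± 0.12, adjusted p = 3.84e-27), where the median of all genes was 5.56. Trgc1, a constant gene of the gamma chain, had 82 counts over 3 tumor pTreg libraries, 3 over 5 tumor tTreg libraries and 487 over 4 LN Treg libraries. The antisense gene Gm43434 shares 3437 bases with Trdc and had 1 count in all 12 libraries.

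CD4 is the coreceptor on which the cells were sorted. Cd4 (chr6:124864692-124888221, minus strand) read 321, 330 and 327 CPM in tumor pTreg, 93.0, 92.9, 96.9, 93.4 and 85.7 CPM in tumor tTreg, and 661, 663, 636 and 646 CPM in LN Treg. The groups kept the order of the CD3 genes but lay closer together. Cd4 was 3.54-fold higher in tumor pTreg than in tumor tTreg (edgeR, log2 fold change 1.82 ± 0.03 SE, adjusted p = 4.60e-27). It was 1.86-fold lower in tumor pTreg (edgeR, adjusted p = 7.91e-21) and 6.59-fold lower in tumor tTreg (edgeR, adjusted p = 1.43e-33) than in LN Treg.

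Per T cell transcript, Cd4 was highest in tumor tTreg. It averaged 30.8 per 100 T cell counts in tumor pTreg, 93.7 in tumor tTreg and 14.02 in LN Treg. It was 3.04-fold lower in tumor pTreg than tumor tTreg (edgeR, log2 fold change -1.60 ± 0.04 SE, adjusted p = 4.72e-28). It was 2.20-fold higher in tumor pTreg (edgeR, 1.14 ± 0.04, adjusted p = 2.21e-24) and 6.68-fold higher in tumor tTreg (edgeR, 2.74 ± 0.04, adjusted p = 4.79e-36) than in LN Treg. The macrophage and dendritic cell markers are given with the coreceptors because such cells can carry Cd4. On the T cell scale all 9 macrophage markers were lower in tumor pTreg than tumor tTreg (median log2 fold change -3.50). All 8 dendritic cell markers were lower there too (median -3.28). So were 97.3% of all genes, whose median was -3.43. Against LN Treg all 9 macrophage markers (median 11.4) and 6 dendritic cell markers were higher in tumor pTreg, and 2 dendritic cell markers were lower. There 90.5% of all genes were higher. Of the 9 macrophage markers 1 was higher, 3 were lower and 5 did not pass in tumor pTreg against tumor tTreg on the library scale, and of the 8 dendritic cell markers 4, 2 and 2. Of all genes 26.8% were higher and 25.3% lower in that comparison. The 8 dendritic cell markers summed to 317 to 334 CPM in tumor pTreg, 323 to 335 CPM in tumor tTreg and 215 to 223 CPM in LN Treg. These sums rest mostly on Itgax in the tumor groups and on Itgae in LN Treg. Itgax averaged 266 CPM in tumor pTreg, 296 in tumor tTreg and 1.16 in LN Treg, and Itgae 44.0, 20.3 and 208 CPM. The part of dendritic cells and macrophages in the Cd4 values was not tested.

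**Figure D4:**
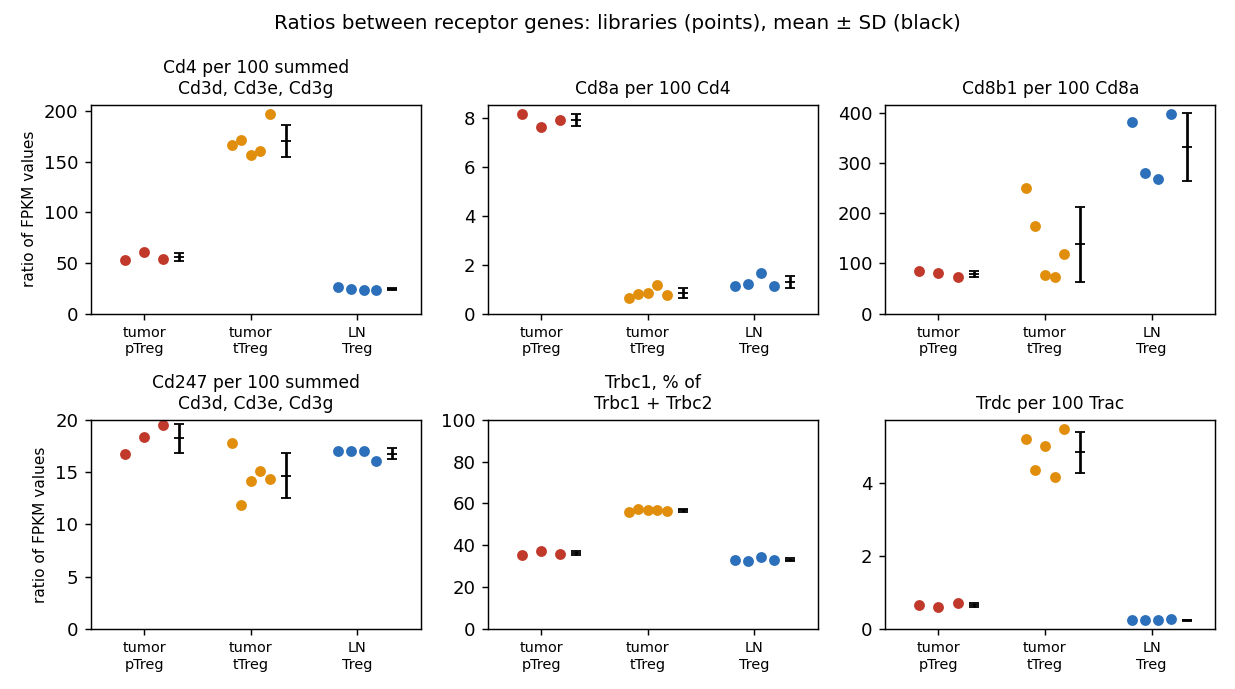
Ratios of FPKM values between receptor genes in tumor pTreg, tumor tTreg and LN Treg libraries (points), with mean ± SD in black and all axes from 0. Cd4 per 100 summed CD3 FPKM was 156 to 198 in tumor tTreg, Cd8a per 100 Cd4 was 7.66 to 8.16 in tumor pTreg, and Cd247 per 100 summed CD3 FPKM overlapped between the groups.

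Cd8a encodes the alpha chain of CD8, which forms both the homodimer and the pair with CD8 beta. Cd8a was the only member with its highest level in tumor pTreg on the library scale. It read 24.0, 24.3 and 22.5 CPM in tumor pTreg, 0.438, 0.710, 0.702, 0.931 and 0.552 CPM in tumor tTreg, and 8.12, 7.89, 9.81 and 7.15 CPM in LN Treg. The tumor tTreg values rest on 8 to 17 counts a library, those of tumor pTreg on 407 to 436. Cd8a was 35.2-fold higher in tumor pTreg than in tumor tTreg (edgeR, log2 fold change 5.14 ± 0.13 SE, adjusted p = 1.76e-23), and 32 of 15705 genes had a larger log2 fold change. It was 3.07-fold higher in tumor pTreg than in LN Treg (edgeR, 1.62 ± 0.09, adjusted p = 1.69e-16). In tumor tTreg it was 11.5-fold lower than in LN Treg (edgeR, -3.52 ± 0.16, adjusted p = 1.27e-18). Relative to T cell counts it averaged 2.23 per 100 T cell counts in tumor pTreg, 0.675 in tumor tTreg and 0.177 in LN Treg. Tumor pTreg exceeded tumor tTreg 3.30-fold (edgeR, adjusted p = 1.31e-11) and LN Treg 12.5-fold (edgeR, adjusted p = 1.62e-28) on that scale.

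Cd8b1 encodes the beta chain of CD8, found mainly on conventional CD8 T cells. It read 9.85, 9.63 and 8.19 CPM in tumor pTreg, 0.657, 0.546, 0.270, 0.329 and 0.387 CPM in tumor tTreg, and 14.1, 10.4, 13.2 and 13.5 CPM in LN Treg. It was thus highest in LN Treg on the library scale, unlike Cd8a. Cd8b1 was 20.9-fold higher in tumor pTreg than in tumor tTreg (edgeR, log2 fold change 4.38 ± 0.18 SE, adjusted p = 5.40e-18). It was lower in tumor pTreg than in LN Treg (edgeR, log2 fold change -0.37 ± 0.10, adjusted p = 0.00143), a call that was lost with limma on log2(FPKM + 0.1) (-0.46, adjusted p = 0.0605). Relative to T cell counts it was 3.16-fold higher in tumor pTreg than in LN Treg (edgeR, adjusted p = 7.62e-16) and 1.97-fold higher than in tumor tTreg (edgeR, adjusted p = 0.000241). In tumor tTreg against LN Treg it was called higher on that scale (edgeR, 0.68 ± 0.27, adjusted p = 0.0167), on 5 to 12 counts a tumor tTreg library, and the call was lost without tumor tTreg replicate 1 (0.48, adjusted p = 0.131) or 2 (0.59, adjusted p = 0.0658).

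Cells other than CD8 T cells can carry Cd8a, and their markers are given beside it. Dendritic cells of the CD8 alpha type are marked by Xcr1, at 3.29 ± 0.880 CPM in tumor pTreg, 1.87 ± 0.0730 in tumor tTreg and 1.31 ± 0.205 in LN Treg, and by Clec9a, at 3.58 ± 0.347, 4.54 ± 0.567 and 0.246 ± 0.0705 CPM. The 7 NK cell markers listed summed to 1.94 to 2.67 CPM in tumor pTreg, 1.09 to 1.84 CPM in tumor tTreg and 1.10 to 1.73 CPM in LN Treg, with Ncr1 at 0 counts in tumor pTreg. The 1 of them that could be tested, Klrb1c, passed in no comparison on the library scale (edgeR, adjusted p of 0.0677 to 0.837). Foxp3, given above, was lower per T cell transcript in tumor pTreg than in both other groups. On that scale 97.3% of all genes were lower than in tumor tTreg, and 4.73% were lower than in LN Treg. The part of transferred CD8 T cells and of dendritic cells in the Cd8a and Cd8b1 values was not tested.

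Ratios within a library were then compared by exact two-sided permutation tests of FPKM ratios, 12 tests in all. None reached an adjusted p below 0.05 (the lowest Benjamini-Hochberg value was 0.0857), and 3 against 5, 3 against 4 and 5 against 4 libraries allow no raw p below 0.0357, 0.0571 and 0.0159. Cd8a per 100 Cd4 was 7.92 ± 0.254 in tumor pTreg (SD, n = 3), 0.838 ± 0.194 in tumor tTreg (n = 5) and 1.28 ± 0.245 in LN Treg (n = 4). Tumor pTreg did not overlap the other groups, at the smallest exact p in each comparison, 0.0357 against tumor tTreg and 0.0571 against LN Treg, whereas tumor tTreg and LN Treg overlapped (exact permutation p = 0.0476). Cd4 per 100 summed Cd3d, Cd3e and Cd3g was 55.8 ± 4.08 in tumor pTreg, 170 ± 16.2 in tumor tTreg and 24.3 ± 1.33 in LN Treg. No groups overlapped, and each exact p was the smallest possible, 0.0357, 0.0571 and 0.0159.

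The makeup of CD8 and of the CD3 complex differed less clearly. Cd8b1 per 100 Cd8a was 79.2 ± 5.88 in tumor pTreg, 138 ± 74.8 in tumor tTreg and 332 ± 67.2 in LN Treg. Both tumor groups lay below LN Treg without overlap (exact permutation p = 0.0571 for tumor pTreg and 0.0159 for tumor tTreg). Between the tumor groups the libraries overlapped, with tumor tTreg spread from 71.8 to 250 (exact permutation p = 0.321). Cd247 per 100 summed Cd3d, Cd3e and Cd3g was 18.2 ± 1.39 in tumor pTreg, 14.7 ± 2.13 in tumor tTreg and 16.8 ± 0.481 in LN Treg, with overlap in every comparison (exact permutation p of 0.0714 to 0.229). The part of Cd3g in the summed FPKM of the 3 CD3 genes averaged 60.0% in tumor pTreg, 53.8% in tumor tTreg and 52.6% in LN Treg. The FPKM of Cd3e in tumor tTreg needs care, since 1 CPM corresponded to 1.19 ± 0.312 FPKM there, against 0.873 ± 0.0325 in tumor pTreg and 0.885 ± 0.0228 in LN Treg.

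Ordered by FPKM, which allows genes to be compared per length, the members ranked differently in the 3 groups. In tumor pTreg the order was Trac (193 FPKM), Trbc2 (165), Cd3g (135), Cd4 (125), Cd3e (51.7), Cd247 (40.9), Cd3d (38.0), Cd8a (9.89), Cd8b1 (7.84) and Trdc (1.27). There the libraries of Cd3g overlapped those of Cd4, and those of Cd247 overlapped those of Cd3d. In tumor tTreg Cd4 led with 35.0 FPKM, before Trac (20.7), Trbc2 (14.9), Cd3g (11.1), Cd3e (5.50), Cd3d (3.998), Cd247 (3.03), Trdc (0.988), Cd8b1 (0.372) and Cd8a (0.292). There Cd3e overlapped Cd3d, Cd3d overlapped Cd247 and Cd8b1 overlapped Cd8a. In LN Treg Trbc2 led with 1293 FPKM, before Trac (929), Cd3g (566), Cd3e (302), Cd4 (261), Cd3d (209), Cd247 (181), Cd8b1 (10.9), Cd8a (3.34) and Trdc (2.24), with no overlap between neighbours. Cd4 thus stood behind Cd3e in LN Treg and ahead of every other member in tumor tTreg, and Trdc ranked above both CD8 genes in tumor tTreg alone of the 3 groups.

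The proximal partners of the receptor, 20 genes that start or damp its signal, moved as the members did on the library scale. All 20 were higher in tumor pTreg than in tumor tTreg (median log2 fold change 3.08), where 26.8% of all genes were higher. All 20 were lower than in LN Treg in tumor pTreg (median -1.69), where 39.8% of all genes were lower. They were also lower in tumor tTreg than in LN Treg (median -5.05), where 42.3% of all genes were lower. Lck, the kinase bound by both coreceptors, averaged 159 ± 3.90 CPM in tumor pTreg, 13.9 ± 1.38 in tumor tTreg and 819 ± 17.7 in LN Treg. Cd6, a surface receptor of T cells that modulates the signal, was 9.47-fold higher in tumor pTreg than in tumor tTreg (edgeR, adjusted p = 1.11e-30). Trat1, which encodes an adaptor that associates with the receptor, was 8.23-fold lower in tumor pTreg than in LN Treg (edgeR, adjusted p = 1.19e-30). Several of the 20, Lck and Cd6 among them, belong to the sum that sets the T cell scale. On that scale, 3 of the 20 were higher, 11 lower and 6 not called in tumor pTreg against tumor tTreg, where 0.484% of all genes were higher and 97.3% lower. Against LN Treg 13 were higher, 6 lower and 1 not called in tumor pTreg, and 12, 5 and 3 in tumor tTreg, where 90.5% of all genes were higher for tumor pTreg and 96.7% for tumor tTreg. Lcp2 and Vav1, a scaffold and an exchange factor of receptor signalling that many leukocytes use, were higher in tumor tTreg than in LN Treg on that scale, 16.7-fold and 16.9-fold (log2 fold changes of 4.06 and 4.08), which lay below the median of 5.56 over all genes.

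Of the 11 transcription factors that set CD4 or CD8 identity, 9 were higher in tumor pTreg than in tumor tTreg and 2, Runx1 and Zbtb7b, did not pass the test. Against LN Treg 10 were lower and 1, Runx3, was higher, both in tumor pTreg and in tumor tTreg. These counts are on the library scale, where 26.8% of all genes were higher between the tumor groups. Against LN Treg 39.8% of all genes were lower in tumor pTreg and 42.3% in tumor tTreg. Runx3, which represses Cd4 and maintains CD8 identity, averaged 99.2 ± 4.03 CPM in tumor pTreg, 59.8 ± 1.99 in tumor tTreg and 46.9 ± 1.17 in LN Treg. Zbtb7b encodes ThPOK, which maintains CD4 identity, and averaged 91.4 ± 3.78 CPM in tumor pTreg, 90.7 ± 4.11 in tumor tTreg and 182 ± 4.76 in LN Treg. Zbtb7b was named after its values were seen. Satb1, a chromatin organiser of T cells, was 11.3-fold higher in tumor pTreg than in tumor tTreg (edgeR, adjusted p = 6.58e-28). Bcl11b, which maintains T cell identity, was 10.5-fold higher (edgeR, adjusted p = 6.21e-27). Relative to T cell counts none of the 11 was higher in tumor pTreg than in tumor tTreg, 9 were lower and 2 were not called, where 97.3% of all genes were lower and 0.484% higher.

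Of 5 receptor chains and adaptors that serve other immune cells, several with the same kind of tyrosine motif, 3 were higher and 2 lower in the tumor groups. Fcer1g and Tyrobp, which serve Fc and myeloid receptors, and Fcgr3, an Fc receptor, were higher than in LN Treg in both tumor groups, and the B cell receptor chains Cd79a and Cd79b were lower. Over all genes 47.6% were higher and 39.8% lower in tumor pTreg, and 48.1% and 42.3% in tumor tTreg. Fcer1g averaged 147 ± 4.29 CPM in tumor pTreg, 157 ± 6.13 in tumor tTreg and 0.581 ± 0.124 in LN Treg. Of the 5, Fcer1g alone passed the test between the tumor groups (edgeR, log2 fold change -0.08 ± 0.03 SE, adjusted p = 0.0407), where 52.1% of all genes were called. The 5 B cell markers summed to 3.48 to 4.17 CPM in tumor pTreg, 3.06 to 4.05 in tumor tTreg and 11.8 to 13.3 in LN Treg.

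The genes most like a member in their course over the 12 libraries were sought among all tested genes by the root mean square difference of centred log2 CPM. Closest to Cd3e were Cd96, Skap1 and Lck, at 0.158, 0.178 and 0.190. Closest to Cd247 were Lat, Sema4f and Grap2, at 0.134, 0.173 and 0.191. For Cd4 they were Tnfsf8, Zdhhc2 and H2-Q7, at 0.113, 0.115 and 0.139. No gene came as close to Cd8a, where Fasl, Tnfsf11 and Cxcr6 stood at 0.276, 0.369 and 0.392. Cd8a had only 8 to 17 counts a library in tumor tTreg, and the part of this depth in its distances was not tested. Fasl, the ligand of the death receptor Fas, averaged 20.2 CPM in tumor pTreg, 0.492 in tumor tTreg and 7.83 in LN Treg. Closest to Trdc were Nxf1, Srsf5 and Sdf4, at 0.0766, 0.0771 and 0.0782. Nxf1, an mRNA export factor found in most cells, averaged 235 CPM in tumor pTreg, 182 in tumor tTreg and 409 in LN Treg. The values lie on 10049 genes, and on 12679 for Trdc, for which the limit on low levels was lowered.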

How the data were processed

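Expression was measured by bulk RNA-seq of total RNA (BGISEQ-500, per the labels' protocols). The authors deposited expected counts per gene from RSEM 1.3.3 after alignment with STAR 2.7.11a to GRCm38/mm10, per the submitters' processing notes, and FPKM values of the same genes. The annotation and the use of strand are not given in the sources used here. Expected counts were rounded to whole numbers. From the 27279 genes with a count in any library, filterByExpr in edgeR 4.0.16 (R 4.3.3, limma 3.58.1, DESeq2 1.42.0) kept 15705. They were tested by quasi-likelihood F tests in 1 fit of 12 libraries, with TMM factors and group as the only factor. Adjusted p-values are Benjamini-Hochberg values over all of them within a comparison. The T cell scale replaced TMM by the summed counts of 14 genes. CPM use library totals, and Python 3.11.15 with scipy 1.17.1 gave the permutation tests. Values are mean ± SD. Gene positions are from GENCODE vM21.

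The members, gene lists and tests were chosen with earlier results of these data known. Genes named are the members, Trbc1, the 2 genes of smallest p of a list and the 3 closest to each of Cd3e, Cd247, Cd4, Cd8a and Trdc. Named outside this rule were genes that overlap a member, some genes of the T cell scale, Xcr1, Ncr1, Trgc4, Zbtb7b and the variable segments. Alternatives were other normalizations, filters, tools and units, the compared groups only, the replicate number as a block, other T cell scales, both Trbc copies summed, and each library left out. No library was a repeat deposit: within groups, chi-square values divided by their degrees of freedom were 1.65 to 3.97. The depth of 14573864 to 18510923 counts gave 5 to 17 counts to the CD8 genes in tumor tTreg. On simulated data with 50 genes changed at each size, the edgeR test found 92% of 2-fold changes between the tumor groups, 88% for tumor pTreg and 90% for tumor tTreg against LN Treg. False calls made up 7.82%, 4.82% and 6.9% of all calls in these 3 comparisons. The changed genes were all raised and the rest left unchanged, whereas 52.1% to 90.3% of genes were called in the data. These rates may therefore not carry over to the data. Of the listed names 3 alternative symbols of gamma chain constant genes matched no entry, and Trgc1, Trgc2 and Trgc4 were used. The values of 1 gene that this rule names are not reported here.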

Additional observations from a re-analysis of the deposited data

Results flagged for a closer look

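Of 48 groups of 4 or 5 values of members and ratios, 4 had 1 library far from the others, and chance alone marks about 1 in 20 such groups. Trdc in LN Treg replicate 4 read 8.83 CPM, against 7.62 to 7.75 CPM in the other LN Treg libraries, and 2.48 FPKM, against 2.13 to 2.17. Cd4 in LN Treg replicate 1 read 281 FPKM, against 253 to 257 FPKM in the others, while its CPM did not stand apart. Cd247 per 100 summed Cd3d, Cd3e and Cd3g FPKM was 16.1 in LN Treg replicate 4, against 17.0 in the other LN Treg libraries.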

How the results depend on the processing

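On the library scale every member kept its direction under all alternatives run, and calls were lost only for Trdc between the tumor groups and Cd8b1 in tumor pTreg against LN Treg, as given above. With a log2 fold change of at least 1 also required, 9 members were called between both tumor groups, 7 in tumor pTreg against LN Treg and 10 in tumor tTreg against LN Treg. The share of all genes at that limit is not given here, so these counts have no background beside them. On the T cell scale, signs turned for Trbc2 between the tumor groups under the summed CD3 scale (-0.064) and the Lck scale (-0.038), for Trac in tumor pTreg against LN Treg (0.034 and 0.095), and for Cd3d (0.18 and 0.21) and Cd3g (0.15 and 0.19) in tumor tTreg against LN Treg. Cd247 in tumor pTreg against LN Treg ranged from -0.039 to 0.037 when each library was left out. Cd3d, Cd3e, Cd3g and Cd247 make up the summed CD3 counts, so their own differences shrink on that scale by construction. For the rest the cause was not tested. Scaled to summed CD3 or Lck counts, 7 and 7 members were called between both tumor groups, 9 and 7 in tumor pTreg against LN Treg and 7 and 9 in tumor tTreg against LN Treg. Of all 15705 genes, 61 and 62 were higher and 15305 and 15298 lower between the tumor groups on these scales. In tumor pTreg against LN Treg 14354 and 14397 were higher and 608 and 561 lower. For tumor tTreg against LN Treg these were 15251 and 15256 higher and 123 and 117 lower. Leaving out 1 library raised the smallest p that the exact test of 3 against 5 libraries allows. The difference of Cd8a per 100 Cd4 then ranged from 6.96 to 7.21 between the tumor groups and from -0.522 to -0.323 for tumor tTreg minus LN Treg (exact p above 0.05 without 8 of the 9 libraries). That of Cd4 per 100 summed CD3 FPKM ranged from -118 to -108 between the tumor groups, and that of Cd247 per 100 summed CD3 FPKM from -2.92 to -1.44 for tumor tTreg minus LN Treg, with an exact permutation p of 0.0286 without tumor tTreg replicate 1. Same-numbered libraries of different groups deviated independently (correlations of -0.06 to 0.06 over 9623 genes), so the numbers were not taken as pairs. With the replicate number as a block all 10 members stayed called in each comparison. The genes called between the tumor groups were then 3932 higher and 3563 lower of 15705, against 4204 and 3980 without the block. Against LN Treg they were 7438 higher and 6164 lower in tumor pTreg, and 7493 higher and 6572 lower in tumor tTreg. Depth limits the CD8 genes in tumor tTreg, at 5 to 17 counts a library.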

Other observations

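Variable segments of the receptor genes also gave counts. Beta chain segments (Trbv) had 480 to 513 counts a library in tumor pTreg, 30 to 47 in tumor tTreg and 3128 to 4147 in LN Treg. Per 100 T cell counts they averaged 2.598 ± 0.0860 in tumor pTreg, 1.98 ± 0.358 in tumor tTreg and 4.72 ± 0.261 in LN Treg, and alpha chain segments (Trav) averaged 2.08 ± 0.0576, 2.41 ± 0.566 and 2.34 ± 0.130. Trbv19 held 20.1 ± 1.14% of Trbv counts in tumor pTreg, 12.7 ± 3.95% in tumor tTreg and 9.75 ± 0.819% in LN Treg. Trbv12-1 held 3.38 ± 1.44%, 13.4 ± 3.19% and 3.41 ± 0.391% in these groups, on 24 counts over the 5 tumor tTreg libraries. The segments were named after their values were seen and were not tested.

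Gamma chain genes gave few counts. Variable gamma segments (Trgv) had 49 counts over 3 tumor pTreg libraries, 1 over 5 tumor tTreg libraries and 12 over 4 LN Treg libraries. Trgc2, a constant gene of the gamma chain, had 46 to 67 counts a library in tumor pTreg, 0 to 2 in tumor tTreg and 27 to 33 in LN Treg, and Trgc1 had 23 to 32, 0 to 1 and 110 to 128. On the T cell scale, against LN Treg, Trgc2 was higher in tumor pTreg (edgeR, log2 fold change 2.77 ± 0.22 SE, adjusted p = 1.37e-13), Trgc4 was lower (edgeR, -1.33 ± 0.37, adjusted p = 0.00119) and Trgc1 did not pass the test (edgeR, -0.15 ± 0.19, adjusted p = 0.431), where the median over all genes was 2.15. Variable delta segments had 3 counts over tumor pTreg, 10 over tumor tTreg and 56 over LN Treg. Sox13 and Zbtb16, factors of gamma-delta and innate-like T cells that other tissues also express, had 11.1 and 16.4 CPM in tumor pTreg, 13.7 and 10.2 CPM in tumor tTreg and 0.187 and 0.0874 CPM in LN Treg.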
